A study of Mus musculus with 8 samples.

Results

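The Gimap genes encode GTPases of the immunity-associated proteins, small GTP-binding proteins found mainly in lymphocytes. They were followed here through the probe sets that are annotated to a single Gimap symbol. These were 11 probe sets of 8 genes (Gimap1, Gimap3, Gimap4, Gimap5, Gimap6, Gimap7, Gimap8 and Gimap9), of 45037 probe sets in the whole table. Gimap4, Gimap6 and Gimap7 had 2 probe sets each, and the other genes had 1. All 11 lay above the array median on at least 2 of the 8 arrays, the filter that 23725 probe sets passed.

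The study used Affymetrix arrays on splenic memory CD4 T cells of mice, sorted 60 days after infection with LCMV Armstrong, a virus strain that mice clear. T follicular helper (Tfh) cells, the helpers of B cells in antibody responses, and T helper 1 (Th1) cells, the producers of interferon gamma, came from mice labelled Rictor-null or wild-type (WT). Rictor is a subunit specific to mTOR complex 2, which phosphorylates AKT among other kinases. Each of the 4 groups (Rictor-null Tfh, WT Tfh, Rictor-null Th1 and WT Th1) had 2 arrays, and the RNA of an array was a pool of 10 or more mice. All groups had the same infection and the same memory stage, and the cells were polyclonal. The part of Rictor that was deleted, the promoter of any Cre, the age of the mice and the sort gates were not stated in the sources used here. A p-value below therefore measures the spread between pools and not between single mice.

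GIMAP proteins share a GTP-binding domain of the AIG1 type, which is related to that of septins and dynamins, and several are anchored to membranes of internal organelles. Mice and rats without a working Gimap5 lose peripheral T cells, and the family is known chiefly for its part in the survival of resting lymphocytes. The genes lie side by side in a cluster on mouse chromosome 6. In the RefSeq annotation of GRCm38.p6 the cluster runs from 48647186 to 48770851, 124 kb, in the order Gimap8, Gimap9, Gimap4, Gimap6, Gimap7, Gimap1, Gimap5, Gimap3. Gimap6 and Gimap3 are on the minus strand and the others on the plus strand. Probe sequences were not analysed here, so whether the probes of a member also take up RNA of a close relative, such as Gimap3 for Gimap5, was not tested.

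Gimap7, Gimap5 and Gimap3 are the members whose signals passed the test between genotypes below, and their promoter windows are shown for that reason. Each window is RefSeq sequence of GRCm38.p6, 300 bases around the annotated start and read 5′ to 3′ on the gene's strand, at chr6:48718371-48718670 on the plus strand for Gimap7, chr6:48745947-48746246 on the plus strand for Gimap5 and chr6:48770802-48771101 on the minus strand for Gimap3. Capitals mark matches, on either strand, to a RUNX-type motif (TGTGGT), an ETS-type motif (AGGAAGT) or a FOXO-type motif (GTAAACA).
Gimap7: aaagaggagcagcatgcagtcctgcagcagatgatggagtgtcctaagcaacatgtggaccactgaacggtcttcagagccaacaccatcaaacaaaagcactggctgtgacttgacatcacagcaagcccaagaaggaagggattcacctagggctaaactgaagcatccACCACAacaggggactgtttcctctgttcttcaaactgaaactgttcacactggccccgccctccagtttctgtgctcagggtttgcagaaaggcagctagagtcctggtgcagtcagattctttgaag
Gimap5: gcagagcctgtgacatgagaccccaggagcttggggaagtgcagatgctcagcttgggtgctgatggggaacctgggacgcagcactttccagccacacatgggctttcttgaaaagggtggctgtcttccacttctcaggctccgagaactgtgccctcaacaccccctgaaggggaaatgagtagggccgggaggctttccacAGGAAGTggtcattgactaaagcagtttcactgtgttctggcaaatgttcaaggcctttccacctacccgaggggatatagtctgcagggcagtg
Gimap3: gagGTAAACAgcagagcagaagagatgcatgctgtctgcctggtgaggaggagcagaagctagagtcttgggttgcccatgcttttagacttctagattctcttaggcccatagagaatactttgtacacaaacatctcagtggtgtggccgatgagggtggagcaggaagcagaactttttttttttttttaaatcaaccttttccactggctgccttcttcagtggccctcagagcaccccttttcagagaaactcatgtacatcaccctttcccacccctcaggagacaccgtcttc

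The Gimap7 window held a RUNX-type match at positions -79 to -74 from the start, on the opposite strand. The Gimap5 window held an ETS-type match at -45 to -39, and the Gimap3 window held a FOXO-type match at -247 to -241. Over the 9 windows listed for the 8 genes (Gimap8 has 2), the RUNX-type motif was found for Gimap4, Gimap7 and Gimap1, and the ETS-type motif for Gimap9, Gimap1 and Gimap5. The FOXO-type motif was found for Gimap3. A KLF-type motif (CACCC) was found for Gimap8, Gimap9, Gimap4, Gimap5 and Gimap3, and TATAAA for Gimap6. No matches of different motifs overlapped in these windows. Among all 32851 windows of this table, 16.8% held the RUNX-type motif, 9.35% the ETS-type motif, 3.65% the FOXO-type motif, 57.5% the KLF-type motif and 13.6% TATAAA. These matches describe the letters alone.

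Each array had a median signal between 35.7 and 37.7, and precision was limited by how few arrays there were. Rictor itself had 5 probe sets, of which 1 was higher in Rictor-null Tfh cells and 0 differed in Th1 cells (0 at an unadjusted p under 0.05, limma), with differences from -0.11 to 0.31. Where these probe sets lie relative to the deletion was not stated in the sources used here, so they do not check the labels. All 8 CD4 T cell markers were measured, and 0 passed the test between genotypes (4 at an unadjusted p under 0.05 in Tfh and 2 in Th1 cells). Of all probe sets, 27.9% were under that unadjusted p in Tfh and 23.9% in Th1 cells. Of 7 Tfh markers, 6 were higher in Tfh than in Th1 cells in each genotype. Of 7 Th1 markers, 2 were higher in WT Tfh than in WT Th1 cells (Ccl5 and Nkg7) and 0 were lower (limma). Between lineages, 2.31% of all probe sets were higher and 7.09% lower in WT Tfh cells. The shares in Rictor-null Tfh cells were 4.22% and 6.06%. In Rictor-null cells Nkg7 was again higher in Tfh cells, while Cxcr6 (-0.58 log2, limma adjusted p = 0.0186) and Il18rap (-0.25, 0.0205) were lower in Tfh than in Th1 cells. The Cxcr6 call was lost without Rictor-null Tfh replicate 2 (0.0822) or Rictor-null Th1 replicate 2 (0.115). The Il18rap call was lost without Rictor-null Tfh replicate 2 (0.053), either WT Tfh array (0.0504), or Rictor-null Th1 replicate 1 (0.111) or 2 (0.068). Ccl5 lost the WT call without WT Tfh replicate 1 (adjusted p = 0.115) or 2 (0.0997), or WT Th1 replicate 1 (0.0538) or 2 (0.063). Tbx21, which encodes the Th1 factor T-bet, lay between 422 and 465 on all 8 arrays. Between genotypes, 8.46% of all probe sets were called higher in Rictor-null Tfh and 6.39% in Rictor-null Th1 cells. Tfh markers were also higher in Rictor-null than in WT cells, 7 of 7 in Tfh and 5 of 7 in Th1 cells. Their summed signal was 5640 to 5810 on the Rictor-null Tfh, 3880 to 3970 on the WT Tfh, 3870 to 4040 on the Rictor-null Th1 and 2930 to 3050 on the WT Th1 arrays, and the part of this shift in the Gimap differences was not tested. The sum of the 7 Th1 markers was also higher in Rictor-null cells, 18000 to 18300 against 16200 in Tfh and 16700 to 17100 against 13800 in Th1 cells, and its part was not tested either. Most of that rise was Ccl5, without which the sums were 8320 to 8450 against 8030 to 8090 and 8020 to 8060 against 7240 to 7330. Ccl5 was called higher in both lineages and Il18rap in Th1 cells. The Tfh call of Ccl5 was lost without Rictor-null Tfh replicate 2 (adjusted p = 0.0832), WT Tfh replicate 1 (0.149) or 2 (0.143), or both arrays lowest on the third component (0.0712). The Il18rap call was lost without any single array of Th1 cells or of WT Tfh cells (0.0575 to 0.129). Cd8a and Cd8b1 of CD8 T cells summed to 91.9 to 106 over all arrays, and 1 of them, Cd8b1, was called higher in Rictor-null Tfh cells (58.3 and 62.5 against 45.2 and 43.3). That call was lost without Rictor-null Tfh replicate 2 (adjusted p = 0.0851), WT Tfh replicate 1 (0.113) or 2 (0.148), or both arrays lowest on the third component (0.0732). The summed signal of 7 B cell markers was 168 to 201 over all arrays, with 6 of them below the filter. The 1 kept, Cd79b, was higher in Rictor-null cells by 0.28 log2 in Tfh and 0.375 in Th1 cells. Both differences had an unadjusted p under 0.05 and did not pass (limma). Its signals were 80.6 and 67.6 on the Rictor-null Th1 against 52.2 and 47.2 on the WT Th1 arrays. In Tfh cells they were 44.9 and 66.9 against 35.7 and 44.1. The part of B cells in the Gimap differences was not tested. On the third principal component (18.3% of the variance) the lowest arrays were WT Th1 replicate 1 (-6.49) and Rictor-null Tfh replicate 2 (-12.4), and the calls of members and of named genes that changed without both are given beside them.

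The first comparison asks which Gimap signals differ between Rictor-null and WT cells of the same lineage. In Tfh cells 2 of the 11 probe sets rose and 0 fell, both of them for Gimap7. In Th1 cells 3 rose and 0 fell, 1 each for Gimap7, Gimap5 and Gimap3. The words rose and fell are used for probe sets whose p in limma's moderated test, adjusted over all 23725 probe sets, was under 0.05. At an unadjusted p under 0.05 there were 4 in Tfh (36.4%) and 6 in Th1 cells (54.5%), all higher in Rictor-null cells, beside 27.9% and 23.9% of all probe sets in either direction. Over all probe sets, 8.46% rose and 1.61% fell in Tfh cells, and 6.39% rose and 2.36% fell in Th1 cells. The family's shares of rises were 18.2% and 27.3%, but with 11 probe sets a single one makes up 9.09%. Both rises in Tfh cells are of Gimap7, so the share of 18.2% counts 1 gene more than once. By the brightest probe set of each gene, 1 of 8 members rose in Tfh and 3 of 8 in Th1 cells. With only such probe sets fitted, 1269 of 11217 rose in Tfh and 847 in Th1 cells. With either WT Tfh array or Rictor-null Tfh replicate 2 left out, 1 member rose in Tfh cells. In Th1 cells 1 member rose without WT Tfh replicate 1 or 2, Rictor-null Th1 replicate 1, or WT Th1 replicate 1 or 2. With quantile normalization 2 rose in Tfh cells and 1 in Th1 cells. That setting also moves the share of higher calls among all called probe sets, from 84.0% to 64.5% in Tfh and from 73.0% to 59.9% in Th1 cells.

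Counted by arrays, both Rictor-null arrays lay above both WT arrays for 9 of 11 probe sets in Tfh cells and for 9 in Th1 cells, and for 8 in both. Over all probe sets the same happened for 39.0%, 28.8% and 15.8%. The median difference of the 11 probe sets was 0.10 log2 in Tfh and 0.15 in Th1 cells, beside 0.04 and 0.003 for all 23725. Among the 11016 probe sets within the members' range of brightness, the medians were 0.06 and 0.03. Differences of the members ran from -0.09 to 0.63 in Tfh and from -0.06 to 0.50 in Th1 cells. In each lineage 9 of 11 differences (81.8%) were above 0, beside 60.2% of all probe sets in Tfh and 51.0% in Th1 cells. The members were chosen with earlier results of these data known. None of these shares and medians, above or below, is therefore a test of the family. The members' count fell to 7 in Th1 cells after quantile normalization, where the brighter Gimap6 probe set and Gimap8 moved below 0. All differences are of log2(signal + 32) and folds are of the signal plus 32, which understates the change of dim probe sets. In sorted bulk samples, fewer cells of a type and less RNA per cell cannot be told apart.

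**Figure D1:**
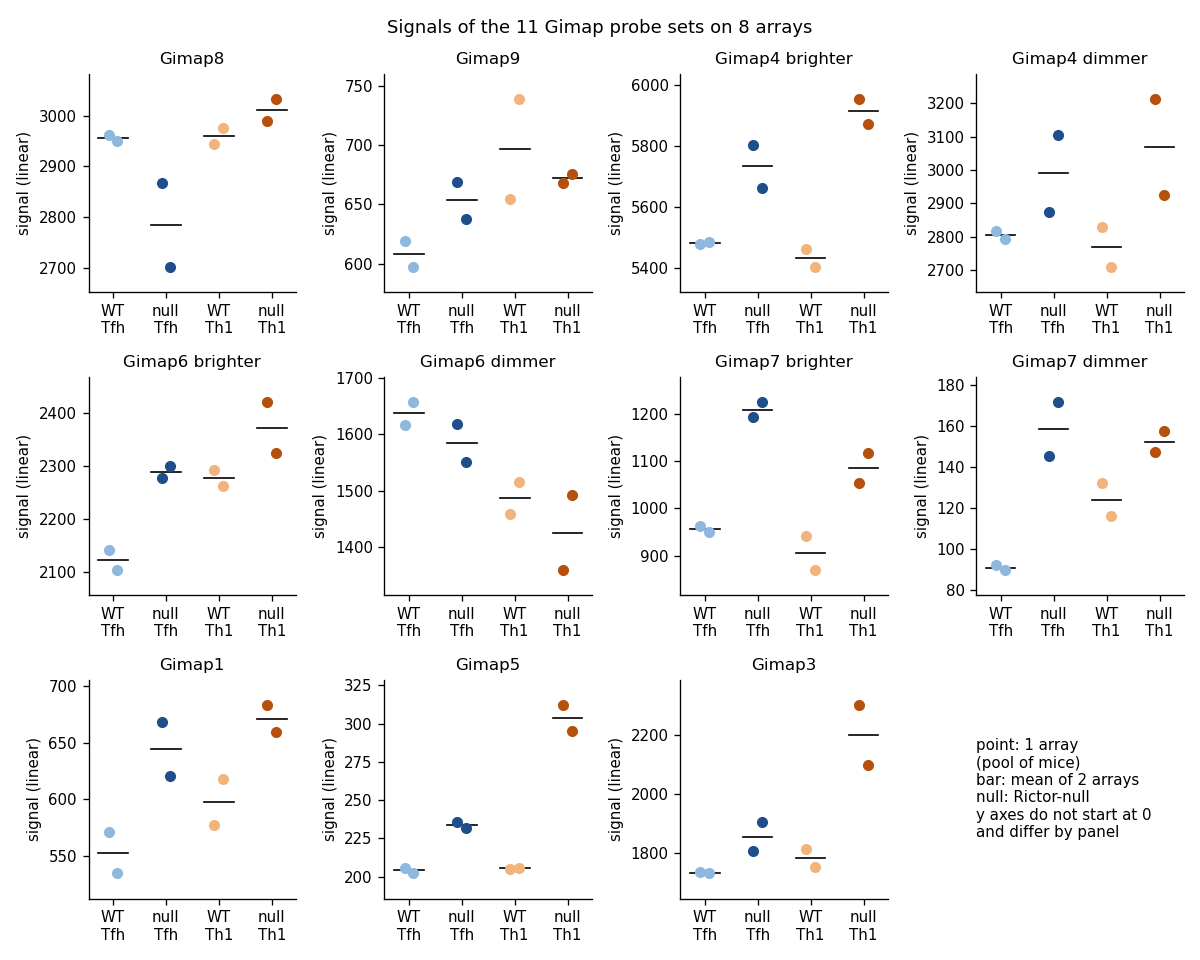
Signals of the 11 Gimap probe sets, 1 panel each in chromosome order, with the linear signal on the y axis (not starting at 0, and scaled per panel) and the 4 groups on the x axis. Points are single arrays and bars are means of 2 arrays; both Rictor-null arrays lie above both WT arrays in both lineages in 8 of the 11 panels.

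Gimap7, a member that binds and hydrolyses GTP as a dimer and is found on lipid droplets, was the member that rose in both lineages. Its brighter probe set (1425084_at) read 1193 and 1225 on the Rictor-null Tfh arrays, 963 and 950.0 on the WT Tfh arrays, 1053 and 1118 on the Rictor-null Th1 arrays, and 942 and 869 on the WT Th1 arrays. All 4 Rictor-null arrays were above all 4 WT arrays. The rise was 0.33 ± 0.062 log2 (SE, n = 2 arrays per group; limma adjusted p = 0.0118), or 1.26-fold, in Tfh cells. In Th1 cells it was 0.25 ± 0.062 (limma adjusted p = 0.0348), or 1.19-fold.

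The dimmer Gimap7 probe set (1444283_at) read 145 and 172 on the Rictor-null Tfh arrays, 91.95 and 89.51 on the WT Tfh arrays, 147 and 158 on the Rictor-null Th1 arrays, and 132 and 116 on the WT Th1 arrays. The WT Tfh arrays stood lowest, and the groups did not overlap within either lineage. It rose by 0.63 ± 0.080 in Tfh cells (limma adjusted p = 0.00162), or 1.55-fold, the largest difference among the members. In Th1 cells the difference was 0.24 ± 0.080 and did not pass (limma adjusted p = 0.0986). So both probe sets of Gimap7 passed in Tfh cells and 1 of 2 passed in Th1 cells.

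The Gimap7 calls did not all hold when an array was left out. The rise of the dimmer probe set in Tfh cells passed under all 19 alternatives that could be computed for it, with adjusted p from 0.00103 to 0.026. The rise of the brighter one in Tfh cells passed under 17 of 20, and lost the call without Rictor-null Tfh replicate 2 (adjusted p = 0.0546), WT Tfh replicate 1 (0.0946) or WT Tfh replicate 2 (0.106). The rise of the brighter one in Th1 cells passed under 10 of 20. It lost the call without Rictor-null Th1 replicate 1 (0.0839) or 2 (0.165), WT Th1 replicate 1 (0.0572) or 2 (0.163), or either WT Tfh array (0.0767). It was also lost after quantile normalization (0.115), with a pseudocount of 1 (0.0708) and with the arrays of the 2 compared groups alone (0.0722). The dimmer probe set passed in Th1 cells without either Rictor-null Tfh array (0.0437), and without both arrays lowest on the third component (0.32 log2, adjusted p = 0.0262).

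Gimap5, whose product sits on lysosomes and related vesicles and is needed for T cell survival, had the clearest difference in Th1 cells. Its probe set (1444181_at) read 312 and 295 on the Rictor-null Th1 arrays against 205 and 206 on the WT Th1 arrays, and 235 and 232 on the Rictor-null Tfh arrays against 206 and 202 on the WT Tfh arrays. Both Rictor-null Th1 arrays stood above the other 6, and the WT arrays of both lineages lay within 202 to 206. The rise in Th1 cells was 0.50 ± 0.055 log2 (SE, n = 2 arrays per group; limma adjusted p = 0.000638), or 1.41-fold. It passed under all 20 alternatives, with adjusted p from 0.00019 to 0.0104. In Tfh cells the difference was 0.17 ± 0.055 and did not pass (limma adjusted p = 0.0811), except with no filter on low signals (0.0494).

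Gimap3, a close relative of Gimap5 that lies next to it in the cluster on the opposite strand, also rose in Th1 cells. Its probe set (1449220_at) read 2301 and 2098 on the Rictor-null Th1 arrays, 1815 and 1755 in WT Th1, 1807 and 1907 on the Rictor-null Tfh arrays, and 1738 and 1733 on the WT Tfh arrays. The Rictor-null Th1 arrays were again above the other 6. The rise was 0.29 ± 0.064 log2 (limma adjusted p = 0.0211), or 1.23-fold, and the difference in Tfh cells was 0.10 ± 0.064 (limma adjusted p = 0.357). The Th1 call passed under 14 of 20 alternatives. Quantile normalization (adjusted p = 0.106) ended it, as did leaving out Rictor-null Th1 replicate 1 (0.143), WT Th1 replicate 1 (0.0741), WT Th1 replicate 2 (0.102) or either WT Tfh array (0.0504).

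Gimap1, which is needed for mature T and B cells, did not pass in either lineage, although its Rictor-null arrays were above its WT arrays in both. Its signals were 669 and 621 on the Rictor-null Tfh arrays against 571 and 535 on the WT Tfh arrays, a difference of 0.21 ± 0.065 log2 (limma adjusted p = 0.0726). They were 683 and 660 on the Rictor-null Th1 arrays against 578 and 618 on the WT Th1 arrays, a difference of 0.16 ± 0.065 (limma adjusted p = 0.177). None of the 20 alternatives called it in either lineage.

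Gimap4, which speeds the death of T cells after an apoptotic signal, did not pass in either lineage. Its brighter probe set (1424375_s_at), whose suffix marks probes shared by several transcripts, read 5804 and 5663 on the Rictor-null Tfh arrays, 5477 and 5486 on the WT Tfh arrays, 5954 and 5873 on the Rictor-null Th1 arrays, and 5462 and 5403 on the WT Th1 arrays. All 4 Rictor-null arrays were above all 4 WT arrays, by 0.06 ± 0.053 log2 in Tfh (95% interval -0.06 to 0.18) and 0.12 ± 0.053 in Th1 cells (0.003 to 0.24). The other Gimap4 probe set (1424374_at) differed by 0.09 ± 0.067 and 0.15 ± 0.067, with Rictor-null arrays at 2873 to 3213 and WT arrays at 2709 to 2829. Adjusted p for Gimap4 lay between 0.201 and 0.458 in limma, and both probe sets had the same direction in both lineages.

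The 2 probe sets of Gimap6, whose product binds the autophagy protein GABARAPL2, disagreed in direction. The brighter (1427891_at) read 2276 and 2300 on the Rictor-null Tfh arrays against 2140 and 2103 on the WT Tfh arrays, and 2420 and 2323 against 2291 and 2262 in Th1 cells, differences of 0.11 ± 0.054 and 0.06 ± 0.054 log2. The dimmer (1456762_at) read 1618 and 1551 against 1617 and 1657 in Tfh, and 1359 and 1492 against 1459 and 1515 in Th1 cells, differences of -0.05 ± 0.064 and -0.06 ± 0.064. The groups overlapped for the dimmer probe set in both lineages, and neither probe set passed in limma (adjusted p from 0.23 to 0.672). The Th1 difference of the brighter was -0.02 after quantile normalization.

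Gimap8 and Gimap9 gave no call between genotypes. Gimap8 encodes a long member with several GTP-binding domains. It read 2867 and 2702 on the Rictor-null Tfh arrays against 2961 and 2949 on the WT Tfh arrays, and 2989 and 3033 on the Rictor-null Th1 arrays against 2944 and 2975 on the WT Th1 arrays. It was thus the member whose Rictor-null arrays lay below its WT arrays in Tfh cells, by -0.09 ± 0.056 log2 (95% interval -0.21 to 0.04; limma adjusted p = 0.345). In Th1 cells its difference was 0.02 ± 0.056 (-0.10 to 0.15), and -0.03 after quantile normalization. Gimap9 read 669 and 638 against 619 and 597 in Tfh cells, a difference of 0.10 ± 0.068, and 668 and 676 against 654 and 739 in Th1 cells, -0.05 ± 0.068 with overlapping arrays.

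**Figure D2:**
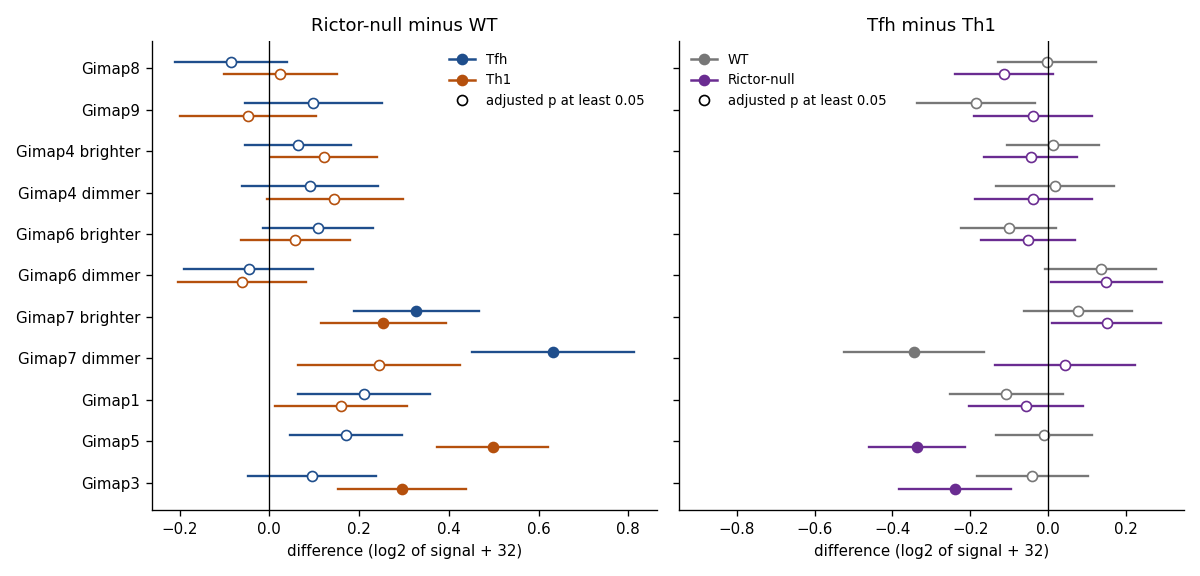
Differences in log2(signal + 32) for the 11 Gimap probe sets, Rictor-null minus WT on the left for Tfh and Th1 cells and Tfh minus Th1 on the right for WT and Rictor-null cells. Points are limma estimates, lines are 95% intervals, and filled points have an adjusted p under 0.05; in the left panel these are 2 for Tfh and 3 for Th1 cells.

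The second comparison asks which members differ between Tfh and Th1 cells of the same genotype. In WT cells 1 of 11 probe sets, the dimmer one of Gimap7, was lower in Tfh than in Th1 cells, and 0 were higher (2 at an unadjusted p under 0.05, or 18.2% beside 29.7% of all probe sets, limma). In Rictor-null cells 2 were lower in Tfh than in Th1 cells, Gimap5 and Gimap3, and 0 were higher (4 at an unadjusted p under 0.05, or 36.4% beside 25.5%). Over all probe sets, 2.31% were higher and 7.09% lower in WT Tfh cells, and 4.22% were higher and 6.06% lower in Rictor-null Tfh cells. The median of the members was -0.01 log2 in WT and -0.04 in Rictor-null cells, beside -0.05 and -0.01 for all probe sets. These comparisons share their arrays with those between genotypes, so they are not separate evidence. The share of higher calls among all calls went from 24.6% to 45.5% in WT cells after quantile normalization. In Rictor-null cells it was 41.1% as deposited, 51.1% after quantile normalization and 30.8% after median centring.

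Gimap5 was lower in Rictor-null Tfh than in Rictor-null Th1 cells by -0.34 ± 0.055 log2 (limma adjusted p = 0.00603), while its WT difference was -0.01 ± 0.055 (95% interval -0.13 to 0.12). The call was lost without Rictor-null Th1 replicate 1 (adjusted p = 0.0513) and passed under the other 19 alternatives. Gimap3 was lower in Rictor-null Tfh cells by -0.24 ± 0.064 (limma adjusted p = 0.044), but this passed under 6 of 20 alternatives. Among the arrays left out in turn, it was kept only without Rictor-null Th1 replicate 2. Without the other arrays its adjusted p was 0.109 (Rictor-null Tfh replicate 1), 0.0651 (Rictor-null Tfh replicate 2), 0.0908 (either WT Tfh array), 0.234 (Rictor-null Th1 replicate 1) and 0.0584 (either WT Th1 array), and without both arrays lowest on the third component it was 0.0555. The dimmer Gimap7 probe set was lower in WT Tfh than in WT Th1 cells by -0.34 ± 0.080 (limma adjusted p = 0.0325). That call was lost without WT Tfh replicate 1 (0.178) or 2 (0.179), without WT Th1 replicate 1 (0.175) or 2 (0.0545), and without both arrays lowest on the third component (0.0536). The brighter Gimap7 probe set went the other way, 0.08 ± 0.062 in WT cells (limma adjusted p = 0.425).

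Gimap1, Gimap5, Gimap3 and the brighter Gimap6 probe set shared an order of group means, from Rictor-null Th1 through Rictor-null Tfh and WT Th1 to WT Tfh, and the other 7 probe sets had other orders. Rictor-null Th1 cells had the highest mean for Gimap8, Gimap1, Gimap5, Gimap3, both Gimap4 probe sets and the brighter Gimap6 probe set. For the probe sets that shared the order, some neighbouring groups overlapped. These were Rictor-null Th1 and Rictor-null Tfh arrays for Gimap1, and WT Th1 and WT Tfh arrays for Gimap5. Rictor-null Tfh and WT Th1 arrays overlapped for Gimap3 and the brighter Gimap6 probe set. The other neighbours did not overlap. Gimap9 was highest in WT Th1 cells (mean 697 ± 60.0, SD, n = 2) and lowest in WT Tfh cells (608 ± 15.6), -0.18 ± 0.068 log2 between them (limma adjusted p = 0.109). Without both arrays lowest on the third component this was -0.27 and passed (adjusted p = 0.0485). The dimmer Gimap6 probe set was higher in Tfh cells, by 0.14 ± 0.064 in WT and 0.15 ± 0.064 in Rictor-null cells, and did not pass (limma adjusted p = 0.188 and 0.176). From the lowest to the highest of the 8 arrays, signals spanned from 1.10-fold for the brighter Gimap4 probe set to 1.92-fold for the dimmer Gimap7 probe set.

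The interaction asks whether the genotype difference itself differs between Tfh and Th1 cells. In limma 0 of 11 members passed (2 at an unadjusted p under 0.05, or 18.2% beside 18.5% of all probe sets), beside 0.830% of all probe sets with a more positive difference in Tfh cells and 0.426% with a more negative one. The 2 members under an unadjusted p of 0.05 were Gimap5, with -0.33 ± 0.078 log2 (limma adjusted p = 0.0914), and the dimmer Gimap7 probe set, with 0.39 ± 0.113 (limma adjusted p = 0.14). Without Rictor-null Tfh replicate 1 both passed, at -0.34 (adjusted p = 0.0447) and 0.49 (0.0273). Gimap3 had -0.20 ± 0.090 (limma adjusted p = 0.274), and the brighter Gimap7 probe set 0.07 ± 0.088 (0.668). That Gimap5 and Gimap3 passed in Th1 and not in Tfh cells is therefore not shown to be a difference between the lineages.

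The genes beside the cluster were read from the same fit, 5 measured genes on each side. In Tfh cells 1 of 10 rose (Tmem176b) and in Th1 cells 2 of 10 rose (Tmem176b and Tmem176a), with 0 falls in either and 2 at an unadjusted p under 0.05 in each (limma). Over all probe sets 8.46% rose in Tfh and 6.39% in Th1 cells, and 27.9% and 23.9% were under an unadjusted p of 0.05. Tmem176b and Tmem176a encode related membrane proteins of the MS4A type and follow Gimap3 on the chromosome. Tmem176b read 407 and 412 on the Rictor-null Th1 arrays, 192 and 198 in WT Th1, 152 and 180 on the Rictor-null Tfh arrays, and 118 and 125 on the WT Tfh arrays. The Rictor-null Th1 arrays stood far above the others, as they did for Tmem176a (267 and 260 beside 93.2 to 120). In Th1 cells the rises were 0.96 ± 0.072 log2 (limma adjusted p = 7.1e-05) and 0.98 ± 0.081 (0.00012), larger than any Gimap difference, and both passed under all 20 alternatives. The Tfh rise of Tmem176b, 0.36 ± 0.072 (limma adjusted p = 0.0147), was lost without WT Tfh replicate 1 (0.135) or 2 (0.0805), Rictor-null Tfh replicate 2 (0.0638) or both arrays lowest on the third component (0.0532). The remaining genes on the same side, Malsu1, Igf2bp3 and Tra2a, did not pass in either lineage (limma adjusted p from 0.122 to 0.889). On the other side of the cluster 0 of 5 genes passed in either lineage.

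**Figure D3:**
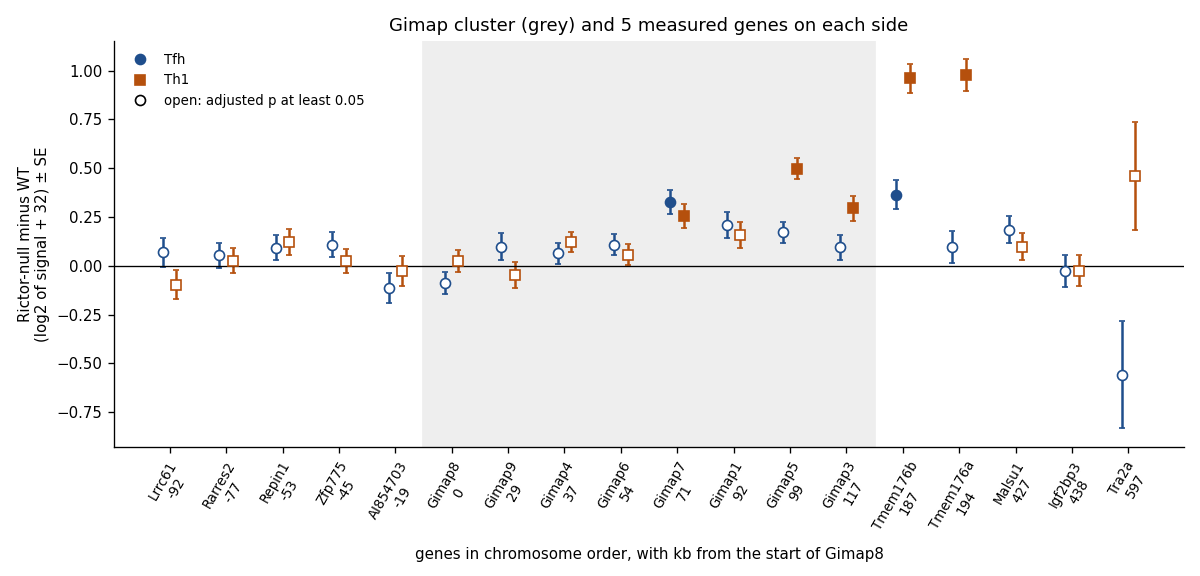
Rictor-null minus WT differences in log2(signal + 32) for the brightest probe set of each Gimap gene (grey band) and of 5 measured genes on each side, in chromosome order with the distance in kb from the start of Gimap8 under each name. Circles are Tfh and squares Th1 cells, bars are standard errors, and filled symbols have an adjusted p under 0.05. The filled symbols lie from Gimap7 to Tmem176a, but not for every gene between them. Gimap1 is open in both lineages, and in Tfh cells only Gimap7 and Tmem176b are filled.

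GIMAP proteins have been reported to bind members of the BCL2 family and GABARAP-type autophagy proteins, and 10 such genes were measured. In Tfh cells 3 rose and 0 fell, and in Th1 cells 2 rose and 0 fell, with 5 and 4 at an unadjusted p under 0.05 (limma). The shares of all probe sets that rose were 8.46% and 6.39%, and 27.9% and 23.9% were under an unadjusted p of 0.05. The 10 genes were read by their brightest probe sets. When only the brightest of each gene was fitted, 1269 of 11217 rose in Tfh and 847 in Th1 cells. The list was chosen with earlier results of these data known. Bcl2, which blocks apoptosis at mitochondria, rose by 0.68 ± 0.065 log2 in Tfh (limma adjusted p = 0.000362) and 0.50 ± 0.065 in Th1 cells (0.00168). Bcl2l11, which encodes the pro-apoptotic protein BIM, rose by 0.26 ± 0.064 in Tfh (0.0347) and 0.42 ± 0.064 in Th1 cells (0.00401). Its Tfh call was lost without Rictor-null Tfh replicate 1 (0.0592) or 2 (0.0919), or WT Tfh replicate 1 (0.173) or 2 (0.199), after quantile normalization (0.104), with a pseudocount of 1 (0.0599) and without both arrays lowest on the third component (0.0766). Gabarapl1 rose by 0.59 ± 0.080 in Tfh cells (0.00217). The list thus held rises both of a gene that blocks apoptosis and of a gene that promotes it. The median of the 10 genes was 0.17 in Tfh and 0.09 in Th1 cells, beside 0.04 and 0.003 for all probe sets.

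Gimap genes are high in resting T cells, so 18 genes of naive and quiescent T cells were read beside them. In Tfh cells 2 rose and 4 fell, and in Th1 cells 1 rose and 6 fell, with 10 and 9 at an unadjusted p under 0.05 (limma). Over all probe sets 8.46% rose and 1.61% fell in Tfh cells, and 6.39% rose and 2.36% fell in Th1 cells. Under an unadjusted p of 0.05 were 27.9% and 23.9% of them. Igfbp4, a secreted binding protein of insulin-like growth factors, fell by 0.61 ± 0.075 log2 in Tfh and by 1.19 ± 0.075 in Th1 cells (limma adjusted p = 0.00134 and 2.83e-05). Bach2, a repressor that restrains effector differentiation, fell by 0.37 ± 0.054 and by 0.58 ± 0.054 (0.00297 and 0.000208). In Th1 cells the chromatin organiser gene Satb1 fell by 0.83 ± 0.065 (9.26e-05). Actn1 also fell in Th1 cells, by 0.70 ± 0.057 (0.00011). Both genes read lower on the Rictor-null arrays in Tfh cells too. Satb1 read 1290 and 1210 there against 1570 and 1560 in WT, and Actn1 840 and 797 against 952 and 986. In Tfh cells the antiproliferative gene Btg2 rose by 0.66 ± 0.092 (0.00261) and Dapl1 by 0.41 ± 0.075 (0.01). In Th1 cells Btg2 went the other way, at 833 and 996 on the Rictor-null against 1140 and 1180 on the WT arrays. Its interaction was 0.99 ± 0.13 (limma adjusted p = 0.0118) and passed under 15 of 19 alternatives. The Dapl1 rise passed under 17 of 20 alternatives. Ccr7 read higher on the Rictor-null arrays, 535 and 528 against 478 and 479 in Tfh cells. In Th1 cells it read 810 and 797 against 644 and 675. The list was mixed, with 7 of 18 differences above 0 in each lineage. The medians of the 18 genes were -0.11 and -0.10, opposite in sign to those of the Gimap genes. This list was chosen with earlier results of these data known, so the sign of its median is no test. Whether the state of rest of the cells has a part in the Gimap differences was not tested.

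Other GTP-binding families were set beside the Gimap genes for their related fold. Of 7 measured septins, 0 passed in either lineage (1 at an unadjusted p under 0.05 in each, limma), with medians of 0.03 and 0.02. Of 13 interferon-inducible and dynamin-like GTPases, 6 rose and 0 fell in Tfh cells, and 6 rose and 0 fell in Th1 cells, with medians of 0.18 and 0.23. At an unadjusted p under 0.05 there were 7 and 8 (limma), beside 27.9% and 23.9% of all probe sets. Over all probe sets 8.46% rose in Tfh and 6.39% in Th1 cells. With the brightest probe set per gene fitted alone, 1269 of 11217 rose in Tfh and 847 in Th1 cells. This list too was chosen with earlier results of these data known. Gbp3, a guanylate-binding protein, rose by 0.48 ± 0.068 log2 in Tfh and 0.81 ± 0.068 in Th1 cells (limma adjusted p = 0.0026 and 0.000123). Iigp1, an immunity-related GTPase, rose by 0.55 ± 0.059 and 0.46 ± 0.059 (0.000655 and 0.00133). The rises of Gbp3 and Iigp1 passed under all 20 alternatives in both lineages.

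The mean profile of the 8 Gimap genes over the 8 arrays, each gene centred on its own mean, was 0.04 and 0.02 log2 on the Rictor-null Tfh arrays, -0.08 and -0.11 on the WT Tfh arrays, 0.13 and 0.11 on the Rictor-null Th1 arrays, and -0.06 and -0.05 on the WT Th1 arrays. Rictor-null Th1 arrays stood highest and WT Tfh arrays lowest. Among 976 other genes with an SD of at least 0.2 log2 over the arrays, the profiles most like it were those of Dlg2 (Pearson r = 0.994 over 8 arrays), AU020206 (0.991), Ccr9 (0.99), Car2 (0.987), Prelid2 (0.986) and Spry1 (0.985). These are the highest of many values over 4 groups, and they carry no test. Their genotype differences were 0.27 to 0.95 in Tfh and 0.46 to 1.57 in Th1 cells, and the SD minimum keeps genes with small differences out of this list.

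**Figure D4:**
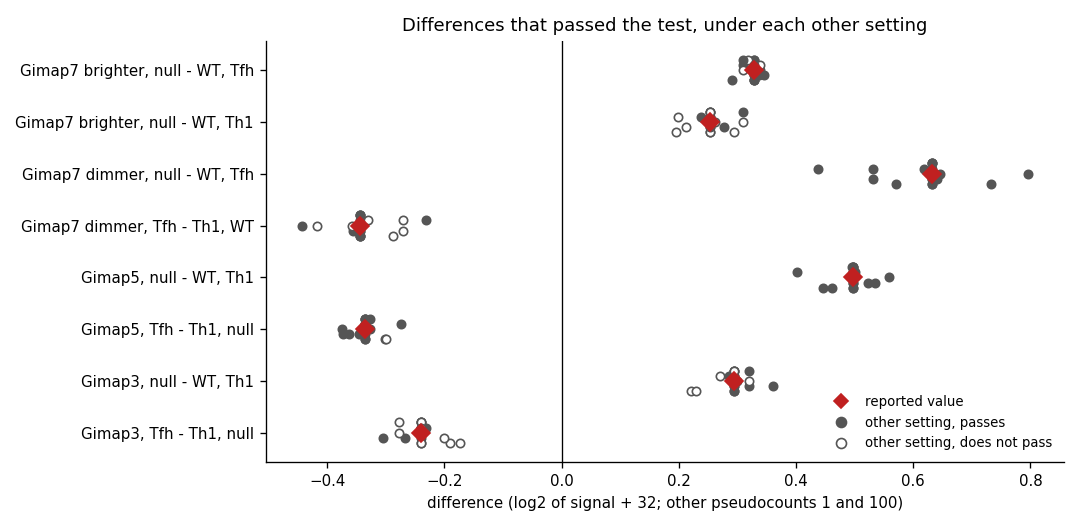
The 8 differences of Gimap probe sets that passed the test, each as reported (diamond) and under the other settings (circles), on a log2 axis with 0 marked. Filled circles passed at an adjusted p under 0.05 and open circles did not; no circle lies on the other side of 0, and those of Gimap5 in Th1 cells and of the dimmer Gimap7 probe set in Tfh cells between genotypes are all filled.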

How the data were processed

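The deposited table of the series holds probe set signals, read here as intensity on a linear scale. Per the submitters' processing notes MAS5 and RMA were used, with no version, role or order. The authors' scaling between the 8 arrays was not stated in the sources used here, and the values were used as deposited. Probe sets were named from the platform annotation: 34945 had 1 symbol, 932 several and 9160 none.

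Signals were taken to log2 after adding 32. Probe sets above their array's median on at least 2 of 8 arrays were kept, 52.7% of the table. limma 3.58.1 (R 4.3.3) fitted 1 mean per group to all 8 arrays, with contrasts, empirical Bayes moderation (4 residual and 5.37 prior degrees of freedom) and Benjamini-Hochberg adjustment over the 23725 kept probe sets. The fit was tested on simulated data. That check required calls to be recovered only for differences larger than any reported for the Gimap genes. A permutation of 2 arrays against 2 was not used. Every member probe set was named, and from other lists up to 4 called genes with the smallest p, by the brightest probe set of a gene. The likeness search took the 6 closest genes, and 5 neighbours were read on each side. A single motif of each type was searched on both strands. The members and gene lists were chosen with earlier results of these data known. Alternatives covered the scaling, the pseudocount (1 and 100), the filter, the brightest probe set per gene, a variance trend, array weights, the arrays fitted, the replicate number and each array left out. The fit without both arrays lowest on the third component was chosen after seeing the data. Figures were drawn with matplotlib 3.10.9.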

Additional observations from a re-analysis of the deposited data

How the results depend on the processing

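The 8 Gimap differences that passed the test kept their direction in all 158 values recomputed under the alternatives, and 42 of these values did not pass. The other 47 Gimap differences changed sign in 24 of 916 values, none of them called, and 7 values passed. With all 8 arrays, the comparison between genotypes called 2387 probe sets in Tfh and 2075 in Th1 cells, that between lineages 2230 in WT and 2440 in Rictor-null cells, and the interaction 298. Called members were 2, 3, 1, 2 and 0 in the same order. Quantile normalization left 1 member in Th1 cells, 0 between WT lineages and 1 between Rictor-null lineages. A pseudocount of 1 left 1 member between Rictor-null lineages and 155 probe sets for the interaction. No filter left 0 members between WT lineages, 1 between Rictor-null lineages and 77 probe sets for the interaction. The brightest probe set per gene, which tests fewer features and leaves out the dimmer Gimap probe sets, gave 1528, 1180, 1090 and 136 probe sets (Tfh, Th1, Rictor-null lineages, interaction), with 1 member in Tfh cells and 0 between WT lineages. Array weights gave 4898 probe sets between WT and 1495 between Rictor-null lineages, with 1 member in the latter. The compared groups alone gave 3391 and 1122, again with 1 member in the latter. Leaving out both arrays lowest on the third component gave 1521 probe sets in Tfh cells and 1 member between Rictor-null lineages. The causes of these shifts were not tested.

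With the replicate number as a block, 1217 probe sets and 0 members were called between WT lineages, 1 member between Rictor-null lineages and 178 probe sets for the interaction. The brighter Gimap7 probe set in Th1 cells then had an adjusted p of 0.0646, and Bcl2l11 in Tfh cells 0.0621. Deviations of same-numbered arrays from their group means correlated between -0.526 and 0.31, so the numbers were not treated as pairs.

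With each array left out in turn, all calls ranged from 533 to 4420 in Tfh, 816 to 2862 in Th1, 207 to 3698 between WT lineages, 898 to 3292 between Rictor-null lineages and 14 to 2245 for the interaction. Called members ranged from 1 to 2, 1 to 4, 0 to 1, 0 to 2 and 0 to 2. The lone array of a group was then assumed to vary like the other groups.

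Sign changes under quantile normalization were the brighter Gimap6 (-0.017) and Gimap8 (-0.034) in Th1 cells, the brighter Gimap4 (-0.019) and Gimap5 (0.057) between WT lineages, the brighter Gimap6 (0.007) and Gimap9 (0.000) between Rictor-null lineages, and the brighter Gimap4 in the interaction (0.005). The dimmer Gimap6 had -0.001 in the interaction after median centring, and the dimmer Gimap7 -0.056 between Rictor-null lineages without both arrays lowest on the third component. With single arrays left out, Gimap9 ranged from -0.132 to 0.037 and the dimmer Gimap6 from -0.127 to 0.005 in Th1 cells. Between WT lineages the dimmer Gimap4 ranged from -0.012 to 0.049, Gimap5 from -0.021 to 0.002 and Gimap8 from -0.010 to 0.005. Between Rictor-null lineages the dimmer Gimap4 ranged from -0.104 to 0.031 and the dimmer Gimap7 from -0.056 to 0.145. In the interaction the dimmer Gimap4 ranged from -0.122 to 0.012 and the dimmer Gimap6 from -0.051 to 0.081.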
